A study of Mus musculus with 2 samples.

Results

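The miR-17-92 cluster is a group of microRNA (miRNA) hairpins cut from a single primary transcript, and the miR-106b-25 and miR-106a-363 clusters are its paralogues. Strands were taken from the deposited miRNA table by name (miR-17, miR-18a, miR-18b, miR-19a, miR-19b, miR-20a, miR-20b, miR-92a, miR-25, miR-93, miR-106a, miR-106b and miR-363, with an optional copy number and an arm), which gave 7 of the 281 listed mature miRNAs. Small RNA came from livers of 3-month-old C57BL/6 mice, with 1 library labelled DICER1 mutant (18480608 reads) and 1 labelled wild type (11432192 reads). The title places the mice as a model of DICER1 syndrome, which predisposes people to tumours. The labels give neither the variant, the promoter or tissue in which it acts, nor whether the mutant library held tumour, and the column headers call the mutant hDICER1_Mut.

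The transcript of miR-17-92 is induced by MYC and by E2F factors. Some of its mature strands repress inhibitors of growth such as Cdkn1a and promoters of cell death such as Bcl2l11. The cluster is also called an oncomir. It is required for B cell and lung development in mice and is amplified in human lymphoma. Dicer cuts each hairpin into a duplex of a 5p and a 3p strand. The guide strand is kept in Argonaute and finds its targets by its seed (bases 2 to 8), whereas the passenger strand is mostly lost. In Dicer the RNase IIIb domain makes the cut that frees the 5p strand and the RNase IIIa domain the one that frees the 3p strand.

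The 7 listed strands came from 6 of the 15 hairpins of the 3 clusters, and 5 of the 7 were passengers. In miR-17-92, 4 of 6 hairpins had a listed strand, in miR-106b-25 1 of 3 and in miR-106a-363 1 of 6. Of 13 guide names in the family, miR-18a-5p and miR-363-3p were listed, and the other 11, miR-17-5p, miR-20a-5p, miR-92a-3p and miR-106b-5p among them, are not analysed here. Only the mir-18a hairpin had both arms listed. Guides and passengers were told apart by general knowledge of the family and not by these counts.

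The sequences of the listed strands, from RefSeq on GRCm38.p6, are shown 5′ to 3′ with the seed in capitals, because the seeds set apart strands that can share targets. All 7 names matched.
miR-17-3p: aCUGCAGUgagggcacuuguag
miR-18a-3p: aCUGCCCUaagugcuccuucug
miR-20a-3p: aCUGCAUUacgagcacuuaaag
miR-106b-3p: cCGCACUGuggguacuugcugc
miR-19b-1-5p: aGUUUUGCagguuugcauccagc
miR-18a-5p: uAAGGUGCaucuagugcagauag
miR-363-3p: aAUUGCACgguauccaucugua
The first 3, the 3p passengers of miR-17-92 itself, all begin with ACUGC but have different seeds. Of 1679 mature mouse miRNAs in the RefSeq table, 10 (0.596%) begin with these letters, and these 3 were the only ones among the 251 listed miRNAs with a RefSeq sequence. The 7 listed strands have 7 different seeds. miR-18a-5p carries the miR-18 seed, which differs from that of the miR-17 guides, and miR-363-3p carries the seed of miR-92a-3p and miR-25-3p. Neither the guide seed AAAGUGC, held by 6 guides of the family, nor the miR-19 guide seed GUGCAAA occurred in any listed miRNA that matched.

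All hairpins named here have the same coordinates in GENCODE M21, which uses the assembly mm10 named in the labels. The miR-17-92 hairpins lie within 836 bases on the plus strand of chromosome 14, in an exon of at least 1 transcript of the noncoding gene Mir17hg: mir-17 at chr14:115043671-115043754, mir-18a at chr14:115043851-115043946, mir-20a at chr14:115044157-115044263 and mir-19b-1 at chr14:115044305-115044391. The mir-106b hairpin (chr5:138165737-138165818, minus strand) lies in an intron of Mcm7, which encodes a subunit of the replicative helicase. The mir-363 hairpin (chrX:52741693-52741767, minus strand) lies outside annotated host genes. The hairpins of mir-18a and mir-20a are printed with the listed strands in capitals, to show a hairpin with both arms listed beside one with the 3p arm alone.
mir-18a hairpin: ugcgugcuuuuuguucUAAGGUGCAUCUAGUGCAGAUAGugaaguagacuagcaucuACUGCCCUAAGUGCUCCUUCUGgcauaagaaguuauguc
mir-20a hairpin: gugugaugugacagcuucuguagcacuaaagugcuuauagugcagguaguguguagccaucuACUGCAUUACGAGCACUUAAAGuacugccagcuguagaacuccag

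Each genotype was a single library without replicates. No test could be run, genotype, animal and library cannot be told apart, and every interval given is a 95% interval that covers counting error only. Levels are RPM, the deposited read counts scaled by the authors to a common library total, and ratios are of mutant over wild-type RPM. A call of higher or lower required a 2-fold or larger difference together with an interval free of equality. The table listed only miRNAs that differed at least 2-fold on the authors' own scale, and among those they gave as higher the lowest RPM ratio was 4.78. The 7 strands therefore describe what was listed and not the whole family. Levels are from whole liver, in which more cells of a type and more RNA per cell cannot be told apart.

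The 6 strands with at least 10 reads over both libraries were all higher in the mutant, at ratios between 5.60 and 27.1, and the remaining strand, miR-19b-1-5p, had 1 read in the mutant against 4 in the wild type. By the same rule 62.0% of the 276 listed miRNAs with at least 10 reads were higher and 7.25% were lower. A strand listed as higher had to pass this call, so 6 of 6 shows no more than that no strand with at least 10 reads was listed as lower. The median log2 ratio was 3.27 over the 6 strands and 2.81 over all 7, against 2.74 over the 276. Over the 171 higher miRNAs it was 3.63, above the median of the 6. Ranked from the highest log2 ratio, the 6 strands stood at places 48, 74, 80, 134, 152 and 153 of 276.

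miR-18a-5p, a guide strand known in human cells to repress ESR1 and components of TGF-beta signalling, had 2606 reads (141.01 RPM) in the mutant and 121 reads (10.6 RPM) in the wild type. Its ratio was 13.3, with an interval of 11.1 to 16.1. Of the family's listed strands it was the second most abundant in each library.

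miR-363-3p, the guide strand at the far end of the X-linked paralogue, had 91 reads (4.92 RPM) in the mutant and 10 reads (0.875 RPM) in the wild type. Its ratio was 5.63, with an interval of 2.93 to 12.1. The interval is wide because it rests on 10 wild-type reads. The listed miRNA miR-92b-3p, which has the same seed but is not part of these clusters, had 1863 reads (100.8 RPM) in the mutant and 54 reads (4.72 RPM) in the wild type, a ratio of 21.3 (interval 16.3 to 28.5).

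miR-106b-3p, the passenger of the Mcm7 hairpin and the most abundant of the 7 strands in each library, had 2755 reads (149.1 RPM) in the mutant and 242 reads (21.2 RPM) in the wild type. Its ratio was 7.04, with an interval of 6.17 to 8.06. In the mutant its level and that of miR-18a-5p were close, with overlapping intervals of 143.6 to 154.7 RPM and 135.7 to 146.5 RPM. In the wild type the intervals of these strands, 18.6 to 24.0 RPM and 8.78 to 12.6 RPM, did not overlap.

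miR-17-3p, the passenger of the first hairpin of miR-17-92, had 760 reads (41.1 RPM) in the mutant and 84 reads (7.35 RPM) in the wild type, a ratio of 5.60 (interval 4.46 to 7.10). miR-20a-3p had 395 reads (21.4 RPM) in the mutant and 9 reads (0.787 RPM) in the wild type, a ratio of 27.1 (interval 14.2 to 59.8). miR-18a-3p had 10.4 RPM in the mutant and 0.700 RPM (8 of 200 reads over both libraries) in the wild type, a ratio of 14.8 (interval 7.38 to 34.9). In the wild type the levels of miR-20a-3p, miR-18a-3p and miR-363-3p lay within each other's intervals, whereas in the mutant the intervals of these 3 strands did not overlap.

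**Figure D1:**
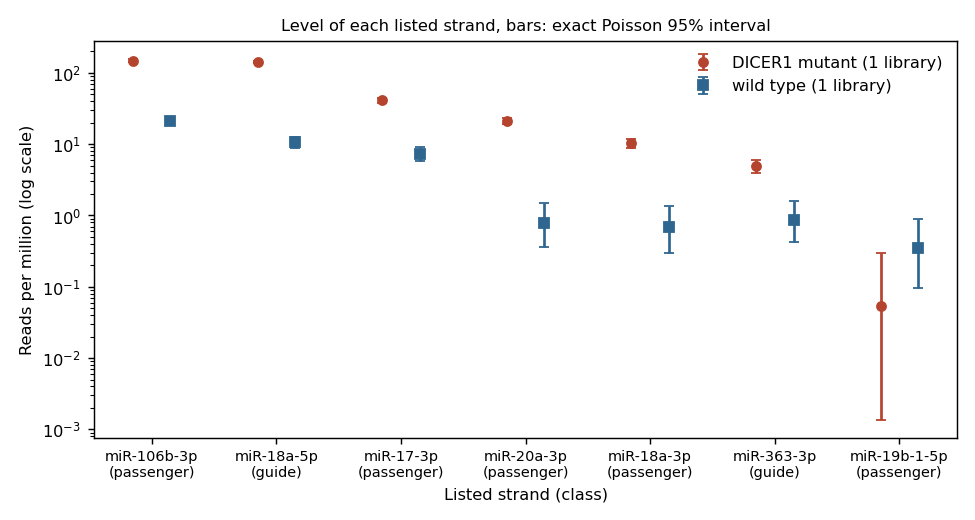
Level of each listed strand in RPM (log axis) in the DICER1 mutant library (circles, left) and the wild-type library (squares, right), with exact Poisson 95% intervals. The intervals are separate for 6 strands, with the mutant above the wild type, and overlap for miR-19b-1-5p, which had 1 read in the mutant and 4 in the wild type.

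miR-19b-1-5p, the passenger of a hairpin whose guide belongs to the miR-19 family, stood at 0.0541 RPM in the mutant and 0.350 RPM in the wild type. The ratio was 0.155, with an interval of 0.00314 to 1.56, so no difference was detectable at this depth by RPM. With the authors' factors, TMM factors and DESeq2 size factors the ratios were 0.0649, 0.0569 and 0.0234 and the strand was called lower, on the same 5 reads. The authors' deposited table gives it a signed fold of -13.0, where a negative value stands for lower in the mutant. For the other 6 strands the authors' deposited table gives signed folds of 11.3 (miR-20a-3p), 6.19 (miR-18a-3p), 5.59 (miR-18a-5p), 2.95 (miR-106b-3p), 2.35 (miR-363-3p) and 2.35 (miR-17-3p).

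**Figure D2:**
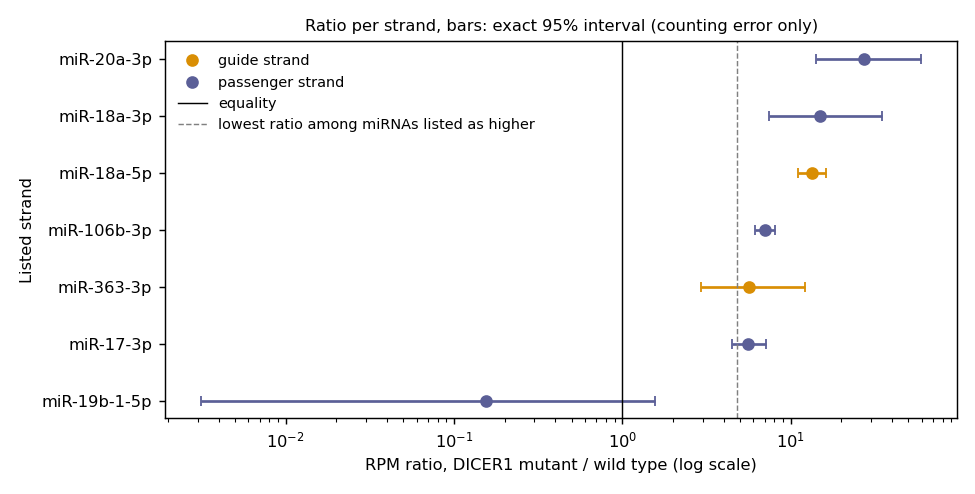
Ratio of mutant to wild-type RPM for each listed strand (log axis), with exact 95% intervals for counting error. The 6 strands from 5.60 (miR-17-3p) to 27.1 (miR-20a-3p) lie to the right of equality, and the interval of miR-19b-1-5p crosses it. The dashed line marks 4.78, the lowest ratio among miRNAs listed as higher.

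The strands differed among themselves in how far they stood above the wild type. The ratio of 2 strands' ratios does not depend on how the libraries are scaled, and of 15 pairs among the 6 strands 8 had an interval that excluded equality. miR-20a-3p exceeded miR-17-3p by a factor of 4.63 (interval 2.34 to 9.15), although both are 3p passengers of the same cluster. miR-18a-5p exceeded miR-17-3p by a factor of 2.38 (interval 1.79 to 3.18) and miR-106b-3p by a factor of 1.89 (interval 1.51 to 2.36). The smallest difference was between miR-17-3p and miR-363-3p, from different clusters, with a factor of 1.03 (interval 0.525 to 2.03). miR-106b-3p and miR-17-3p differed by a factor of 1.26 whose interval, 0.973 to 1.64, included equality. The intervals are approximate (Woolf) and were not adjusted for the number of pairs.

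Along the transcript the ratios were 5.60 at mir-17, 13.3 and 14.8 at the 5p and 3p arms of mir-18a, and 27.1 at mir-20a, in their order on the chromosome. The step from mir-18a to mir-20a was not resolved. miR-20a-3p exceeded miR-18a-3p by a factor of 1.84 (interval 0.717 to 4.71) and miR-18a-5p by 1.94 (0.994 to 3.79), with equality inside each interval. The next hairpin, mir-19b-1, gave the ratio of 0.155 from 5 reads in all. Strands of mir-19a, between mir-18a and mir-20a, and of mir-92a-1, at the end, are not analysed here.

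**Figure D3:**
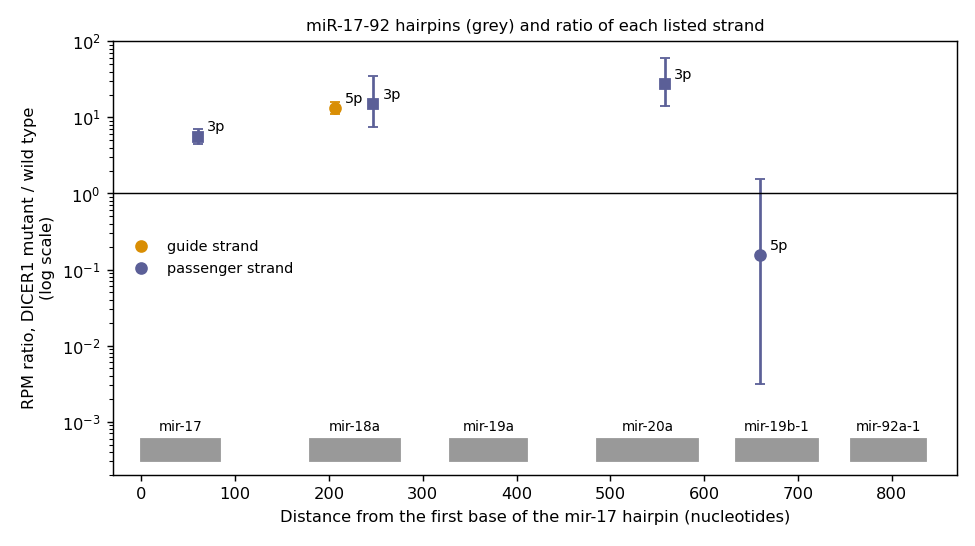
The 6 hairpins of miR-17-92 (grey boxes) by distance in nucleotides from the first base of mir-17, and the mutant to wild-type RPM ratio of each listed strand (log axis) above its place, circles for 5p and squares for 3p, with exact 95% intervals. The 4 strands of mir-17, mir-18a and mir-20a lie between 5.60 and 27.1, and miR-19b-1-5p, with 5 reads in all, lies at 0.155 with an interval that crosses equality.

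By cluster, the 5 listed strands of miR-17-92 together had 3954 reads (213.95 RPM) in the mutant and 226 reads (19.8 RPM) in the wild type, a ratio of 10.8 (interval 9.46 to 12.4). The single strands of miR-106b-25 and miR-106a-363 had the ratios of 7.04 and 5.63 given above. The interval of miR-17-92 did not overlap that of miR-106b-25, 6.17 to 8.06. Without miR-18a-5p the log2 ratio of the miR-17-92 sum was 2.99 in place of 3.44, and that of miR-106b-3p was 2.82 on the same scale without a pseudocount. Of all reads of the 7 strands, miR-17-92 held 58.1% in the mutant (Clopper-Pearson interval 57.0 to 59.3) and 47.3% in the wild type (42.7 to 51.9).

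By strand class, the 2 guides summed to 2697 reads (145.9 RPM) in the mutant and 131 reads (11.5 RPM) in the wild type, a ratio of 12.7 (interval 10.7 to 15.3). The 5 passengers summed to 4103 reads (222.02 RPM) in the mutant and 347 reads (30.4 RPM) in the wild type, a ratio of 7.31 (interval 6.55 to 8.19). The passengers held 60.3% of the family's listed reads in the mutant (59.2 to 61.5) and 72.6% in the wild type (68.4 to 76.5). The order of the classes rested on miR-18a-5p. Without it the guide sum is miR-363-3p alone, with a log2 ratio of 2.49, below the 2.87 of the passengers.

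The mir-18a hairpin allowed guide and passenger to be compared within 1 precursor. It gave 13.6 reads of the 5p guide per read of the 3p passenger in the mutant and 15.1 in the wild type. The guide held 93.1% of the hairpin's reads in the mutant (Clopper-Pearson interval 92.1 to 94.0) and 93.8% in the wild type (88.1 to 97.3). With 0.5 added to each count the odds ratio of guide against passenger was 0.947, with an interval of 0.465 to 1.93 (0.897 without the addition), so a shift of the arms within that range was not detectable with 8 wild-type passenger reads. The other 5 hairpins had 1 listed arm each, and the balance of their arms is not analysed here.

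Of the 4 listed 3p passengers all were called higher, as were 107 (74.3%) of all listed 3p strands with at least 10 reads and 55 (53.4%) of the 5p strands. Median log2 ratios were 3.32 for these 4 passengers and 3.48 for all listed 3p strands. The 5p guide miR-18a-5p, at 3.73 on the same scale, stood above the median of 2.33 of all listed 5p strands. The medians over all listed 3p and 5p strands include strands listed as lower. Over the 171 higher miRNAs of either arm or none the median was 3.63, near the value of miR-18a-5p.

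**Figure D4:**
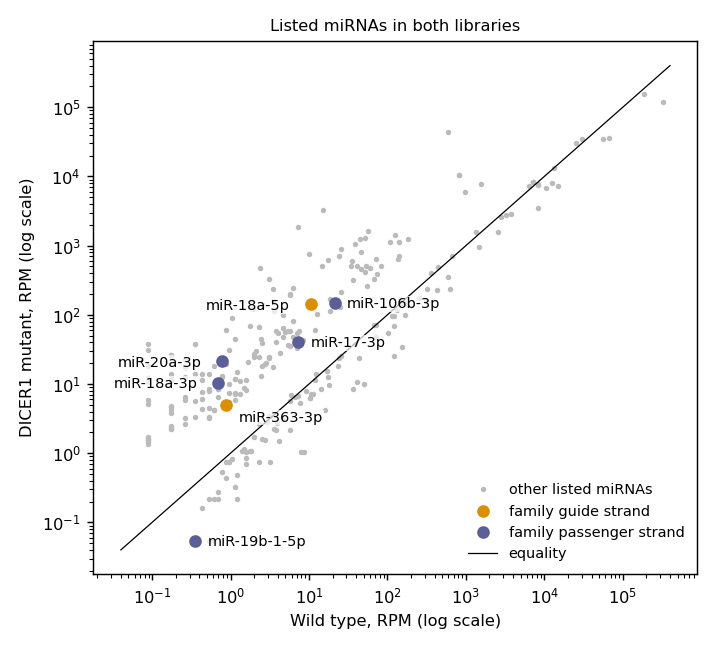
RPM of each of the 281 listed miRNAs in the mutant (vertical) and the wild type (horizontal), both on log axes, with the 7 strands of the family coloured by class and the line of equality. The 6 strands with ratios between 5.60 and 27.1 lie above the line among the other listed miRNAs, and miR-19b-1-5p lies at the lower left below it.

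The size of each ratio depended on the library scaling. The listed miRNAs made up 61.2% of reads in the mutant and 81.8% in the wild type. The authors' scaling lowers every log2 ratio by 1.25 relative to RPM before the pseudocount. The log2 ratios of the 6 strands then lay between 1.22 and 3.48. That all 6 were at least 2-fold higher there was fixed in advance, because listing required a 2-fold difference on that scale. With DESeq2 size factors, which set the median listed miRNA near equality, all log2 ratios are lower by 2.73 before the pseudocount. miR-20a-3p (2.03), miR-18a-3p (1.16) and miR-18a-5p (1.01) then remained called higher, which is 3 of 6 against 27.2% of listed miRNAs. The 27.2% also counts miRNAs listed as lower, which could not be called higher here. All 6 had been listed as higher, and of the 171 miRNAs so listed 75 remained called higher. miR-106b-3p (0.09) was then near equality, and miR-17-3p (-0.24) and miR-363-3p (-0.23) changed sign.

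**Figure D5:**
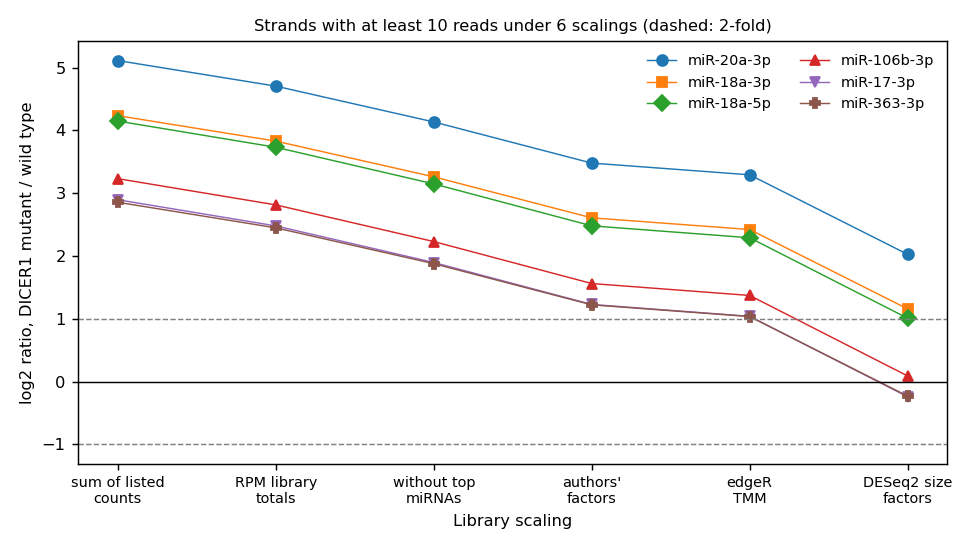
Log2 ratio of mutant over wild type for the 6 strands with at least 10 reads under 6 library scalings, with a line joining the values of each strand and dashed lines at 2-fold. The order of the strands is kept apart from miR-17-3p and miR-363-3p, which nearly coincide. With DESeq2 size factors the strands lie between -0.24 and 2.03.

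Other miRNAs tied to the same circuit were counted from lists drawn up from general knowledge. MYC is known to repress a set of growth-restraining miRNAs. Names were matched without the arm, so passenger strands count beside guides. Of 34 listed strands of that set, from 21 of 24 names, 18 were higher, 1 was lower and 15 were called neither. That is 52.9% higher, below the 62.0% of all listed, with a median log2 ratio of 2.26. Those counts are by RPM. On the authors' scale the 34 split into 18 higher and 16 lower. A split without neither calls was fixed by the listing, in which 171 of 281 miRNAs stood as higher and 110 as lower. DESeq2 size factors left 3 higher, against 27.2% of all listed, and 16 lower, for which no share over all listed is given here. Those 16 were the strands listed as lower, as were 110 of all 281 miRNAs, so the count restates the listing. By RPM ratio, the set's most abundant listed strands stood at 0.538 (miR-30a-5p), 1.19 (miR-26a-5p), 1.02 (let-7f-5p) and 0.927 (miR-30e-5p). A second list held other miRNAs taken to promote division, with 11 listed strands from 9 of 14 names. By RPM 9 of the 11 (81.8%) were higher, against 62.0% of all listed, and 2 were called neither, with a median of 2.77. With DESeq2 size factors 1 of the 11 was higher, against 27.2% of all listed, and the 2 listed as lower were lower. The division list included miR-301a-3p and miR-15b-5p, with ratios of 9.44 and 5.30, and miR-21a-5p and miR-31-5p, with 1.13 and 1.11. The placing of miR-15b-5p there is doubtful, because its family members miR-15a and miR-16 were on the MYC-repressed list.

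Markers of other cell types differed between the libraries too. The blood cell list, whose cells are known to express miR-17-92, had 11 listed strands from 7 of 11 hairpin names, and all 11 were higher by RPM, against 62.0% of all listed miRNAs. With DESeq2 size factors 3 of the 11 were, against 27.2% of all listed miRNAs and 75 of the 171 listed as higher. Rows with identical counts taken once, they summed to 11309 RPM in the mutant and 1965 RPM in the wild type. The leukocyte strand miR-142a-5p alone had 7725 RPM in the mutant and 1562 RPM in the wild type. Of the endothelial and mesenchymal list, the 6 listed strands came from 3 of 8 names, the stromal miR-199a, miR-199b and miR-214, and none from the endothelial miR-126a. All 6 were higher by RPM (12339 RPM in the mutant, 966 RPM in the wild type), with identical counts for miR-199a-3p and miR-199b-3p, and 2 were with DESeq2 size factors. Of the biliary and epithelial strands 8 of 11 were higher (5910 RPM in the mutant, 2105 RPM in the wild type), from all 8 names, a share of 72.7% near that of all listed miRNAs. Of 10 listed hepatocyte strands 3 were lower by RPM, against 7.25% of all listed, and 7 were called neither. With the authors' factors, TMM or DESeq2 size factors all 10 were lower. With each of these factors that follows from the listing, since none was listed as higher. No miRNA listed as lower had an RPM ratio above 1.19, and these factors shift log2 ratios by -1.25, -1.44 and -2.73. Of all 281 listed miRNAs the authors gave 110 as lower. The 10 hepatocyte strands summed to 318056 RPM in the mutant and 595166 RPM in the wild type. No listed marker was at 0 in either library, and strands of the other names, miR-451a, miR-144 and miR-126a among them, are not analysed here. The part of these cell types in the levels of the family was not tested.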

How the data were processed

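Reads from SMARTer smRNA-seq libraries of total liver RNA were mapped to mm10 and miRBase 22.1 and assigned to arms, per the labels' protocols. The submitters' processing notes name cutadapt. Neither the aligner nor the handling of reads matching several miRNAs is given in the sources used here. miR-18a-5p differs from its paralogue miR-18b-5p at 2 of 23 positions, miR-18a-3p from miR-18b-3p at 2 of 21 and miR-17-3p from miR-20b-3p at 3 of 22, so these counts are uncertain. PCR copies are not independent molecules.

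The authors deposited raw read counts and RPM for 281 miRNAs, whose quotient gave the library totals. The authors also deposited log2 normalized values (log2 of 1 plus RPM times 0.611 in the mutant or 1.46 in the wild type), a signed fold score and p-values, which come from 2 libraries and were not used. A level of 3 reads equals 0.162 RPM in the mutant and 0.262 RPM in the wild type.

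Ratios have exact conditional binomial (Clopper-Pearson) intervals, levels exact Poisson intervals, and pairs of strands and the arm balance Woolf intervals with 0.5 added to each count. Log2 ratios of single strands add 0.5 reads in proportion to library size, and those of sums add none. Counts of calls required 10 or more reads in total. Every strand that met the name rule is reported, with up to 4 of the most abundant strands of the other lists. miR-92b-3p and the markers without a listed strand were named after the values were seen. The members and lists were chosen with earlier results of these data known. Alternatives were other scalings (edgeR 4.0.16 TMM and DESeq2 1.42.0 size factors on listed rows, the factors behind the authors' log2 values, the listed counts summed, library totals less the miRNA leading either library), added counts, read minimums and fold limits. Calculations used Python 3.11.15 and scipy 1.17.1 and were tested on simulated counts.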

Additional observations from a re-analysis of the deposited data

How the results depend on the processing

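No paired analysis was possible because each genotype had 1 library, and no library could be left out. Calls of the family's strands with at least 10 reads stayed within 1.5 times the number given above (6 higher, 0 lower) under every alternative tried except DESeq2 size factors, with 3 higher, where miR-17-3p and miR-363-3p changed sign to -0.24 and -0.23. On the authors' scale a 2-fold difference was required for listing, here and for the lists below, so calls with those factors are no separate check. Lower calls of strands listed as lower are no separate check with TMM or DESeq2 size factors either. The log2 ratio of the miR-17-92 sum, 3.44 by RPM, was 2.18 with the authors' factors, 3.85 with the sum of listed counts, 1.99 with TMM, 0.71 with DESeq2 size factors, 2.85 without the top miRNAs and 2.99 without miR-18a-5p. In the same order the guide sum (3.67 by RPM) was 2.42, 4.09, 2.23, 0.95, 3.09 and 2.49. The passenger sum (2.87) was 1.62, 3.29, 1.43, 0.14 and 2.29, and stayed within its interval without miR-106b-3p. DESeq2 and TMM factors were computed on listed rows, most of which were higher by RPM. Of the MYC-repressed strands 3 were higher with DESeq2 size factors, and 16 were lower with the authors' factors, TMM and DESeq2 size factors, 3 without the top miRNAs, 3 at a 1.5-fold limit and 0 at a 4-fold limit. Of the strands on the division list 1 was higher with DESeq2 size factors, and 2 were lower with the authors' factors, TMM and DESeq2 size factors. The odds ratio of the mir-18a arms moved little without the added 0.5 (log2 -0.16 in place of -0.08). A minimum of 10 reads per arm could not be applied to the arm balance, because the wild type had 8 miR-18a-3p reads. For the cell type lists, scalings were added after seeing the data. DESeq2 size factors gave 3 higher blood cell, 2 endothelial and mesenchymal and 5 biliary and epithelial strands, against 27.2% of all listed miRNAs. That share counts miRNAs listed as lower too, and it is 75 of the 171 listed as higher. Lower biliary and epithelial strands numbered 2 without the top miRNAs and 3 with the authors' factors, TMM and DESeq2 size factors. Lower hepatocyte strands numbered 10 under those 3 factors, 6 without the top miRNAs and 1 with the sum of listed counts. Depth limits miR-19b-1-5p most, with 5 reads in all, and then miR-20a-3p, miR-18a-3p and miR-363-3p, with at most 10 wild-type reads each.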
